A study of Mus musculus with 2 samples.

Results

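Transcription factors of the formative epiblast, together with the growth factor gene Fgf5, were examined in mouse embryonic stem cells (ESCs) with and without a point mutation in Sox2. The genes form a list of names drawn up with earlier results of these data known, and matching of the symbols found 9 of the 24532 genes in the table: Otx2, Pou3f1, Fgf5, Sall2, Zic2, Zic5, Foxd3, Gbx2 and Pou5f1. Oct4, the protein name of Pou5f1, was the only one of the 10 symbols searched without a row of its own. The compared cells were E14, a wild-type mouse ESC line, and E14-Sox2TA/WT, a clone of that line in which CRISPR/Cas9 editing changed one Sox2 allele to T258A and left the other wild type. The change removes a threonine that can carry O-GlcNAc, a single sugar attached to nuclear and cytoplasmic proteins. Serum and leukemia inhibitory factor (LIF) were used to culture both, but the clone had been selected and maintained with 2i, which inhibits Mek and Gsk3, and 2i was withdrawn before the experiments. Genotype, clonal origin and culture history therefore cannot be told apart. Polyadenylated RNA of each line was sequenced as 1 library, and the reads assigned to genes numbered 60263536 for E14 and 44609228 for E14-Sox2TA/WT cells.

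Naive ESCs resemble the epiblast before implantation, and the formative state is the stage through which they pass as they become competent for lineage choice. Otx2 and Pou3f1 (also called Oct6) are among the first transcription factors to be induced in this transition, Otx2 helps to move Pou5f1 to new enhancers, and Fgf5 is the classical marker of the epiblast after implantation. Foxd3 is a forkhead repressor needed for the epiblast, Zic2 and Zic5 are zinc finger factors of the early neural plate, Sall2 is a spalt-like zinc finger factor, and Gbx2 is a homeobox factor that supports ESC self-renewal downstream of Stat3 and later patterns the hindbrain. Fgf signaling through Mek and Erk drives the exit from the naive state, and Mek is the kinase that one component of 2i blocks.

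Promoter sequences from RefSeq (GRCm38.p6, the same assembly as mm10) were matched for 7 of the 9 genes, at 12 transcription starts, and not for Pou3f1 and Zic2. The 250 bases before the start are shown for the gene that differed most (Fgf5), for Foxd3, Gbx2 and Otx2, whose ratios were nearly equal, and for Pou5f1, whose level was nearly the same in both libraries. Otx2 and Pou5f1 have further starts, and the most upstream one is given. Capitals mark a match to a Sox core motif.
Fgf5 (chr5:98253934-98254183, plus strand): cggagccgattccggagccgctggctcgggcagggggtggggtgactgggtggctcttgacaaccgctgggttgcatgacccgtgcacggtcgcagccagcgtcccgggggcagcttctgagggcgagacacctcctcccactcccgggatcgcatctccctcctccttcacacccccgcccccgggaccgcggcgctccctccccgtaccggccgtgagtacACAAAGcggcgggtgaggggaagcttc
Foxd3 (chr4:99656049-99656298, plus strand): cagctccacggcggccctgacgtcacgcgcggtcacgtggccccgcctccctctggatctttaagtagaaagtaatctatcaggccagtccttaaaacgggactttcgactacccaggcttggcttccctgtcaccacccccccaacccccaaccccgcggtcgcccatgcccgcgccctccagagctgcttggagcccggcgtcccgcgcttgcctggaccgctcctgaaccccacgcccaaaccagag
Gbx2 (chr1:89931177-89931426, minus strand): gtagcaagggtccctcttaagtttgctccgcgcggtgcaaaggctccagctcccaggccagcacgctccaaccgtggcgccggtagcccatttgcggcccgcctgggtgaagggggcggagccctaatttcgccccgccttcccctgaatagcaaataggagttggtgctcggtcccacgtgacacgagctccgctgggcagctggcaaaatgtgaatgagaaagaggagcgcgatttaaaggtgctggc
Otx2 (chr14:48667645-48667894, minus strand): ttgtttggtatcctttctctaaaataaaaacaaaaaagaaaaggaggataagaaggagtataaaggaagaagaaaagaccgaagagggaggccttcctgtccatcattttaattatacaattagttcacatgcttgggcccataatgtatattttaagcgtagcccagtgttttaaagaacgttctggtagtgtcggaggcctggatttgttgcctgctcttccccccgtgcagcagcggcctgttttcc
Pou5f1 (chr17:35505782-35506031, plus strand): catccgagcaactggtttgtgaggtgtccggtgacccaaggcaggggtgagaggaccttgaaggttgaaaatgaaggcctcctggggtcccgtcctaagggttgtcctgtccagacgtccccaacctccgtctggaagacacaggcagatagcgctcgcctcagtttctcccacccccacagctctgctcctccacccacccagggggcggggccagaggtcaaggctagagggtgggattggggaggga
Both strands were searched for the Sox cores CATTGT and CTTTGT, for the octamer ATGCAAAT bound by POU factors, and for the Otx core TAATCC. The Fgf5 promoter held CTTTGT as its reverse complement, shown in capitals, 27 bases before the start, and the 4 other windows printed held none of these motifs. Among all 32851 promoter windows of this length, CTTTGT was found in 16.5%, CATTGT in 10.7%, TAATCC in 6.25% and ATGCAAAT in 1.60%, so the match in Fgf5 is to the commonest of the 4. At the other starts of the 7 genes, TAATCC was found 211 bases before a downstream Otx2 start and 31 bases before a downstream Pou5f1 start, and CATTGT 158 bases before the latter, all read on the other strand. The windows were of different composition. G and C made up 70.8% of the bases for Fgf5, 65.6% for Foxd3, 61.6% for Gbx2, 62.0% for Pou5f1 and 42.0% for Otx2, beside a median of 52.4% over all windows. The ratio of observed to expected CpG was 0.854 for Foxd3, 0.767 for Fgf5, 0.760 for Gbx2, 0.550 for Otx2 and 0.334 for Pou5f1, beside a median of 0.374. Nearly equal ratios of expression thus came with printed windows of unlike composition. At the other Otx2 starts G and C ran from 48.4% to 53.6% and the CpG ratio from 0.529 to 1.03, so the contrast in CpG depends on the start chosen.

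All 9 genes had a higher TPM (a level scaled for transcript length and library size) in E14-Sox2TA/WT than in E14 cells, although the sign for Pou5f1 turned under 4 other scalings, and 6 of the 9 were more than 2-fold higher. These were Fgf5, Pou3f1, Foxd3, Gbx2, Otx2 and Sall2, whereas Zic2, Zic5 and Pou5f1 differed less. Of the 13269 expressed genes (mean TPM of both libraries 1 or more), 5.86% were more than 2-fold higher and 8.44% more than 2-fold lower, and 53.2% had a ratio above 1. With CPM, counts scaled to library size alone, the same genes gave 4.57% and 10.4%, and the 6 genes remained more than 2-fold higher. The median log2 ratio was 2.33 over the 9 genes and 0.04 over all expressed genes. The filter of the study, which asks for a TPM of 10 or more in either library, was passed by 7 of the 9 genes, of which 5 were more than 2-fold higher. Over the 9094 genes that passed this filter, 4.17% were more than 2-fold higher and 4.07% more than 2-fold lower. Because 5 of the 7 genes reached the filter only in E14-Sox2TA/WT cells, that count is a description, and only Gbx2 and Pou5f1 passed in both libraries. With a TPM under 5 in E14, Pou3f1 and Foxd3 could pass only by differing more than 2-fold. Fgf5, with a TPM of 0.142 in E14, could likewise count as expressed only by differing more than 2-fold. With 1 library per genotype no difference has a replicate check in these data, no p-value is given, and the 95% intervals cover the counting of reads alone. Bulk RNA does not tell whether more cells expressed a gene or each cell held more of its RNA. The study lists Pou3f1, Fgf5 and Sall2 as putative targets in part from the data compared here. The direction of these 3 genes in these libraries is therefore no independent evidence. The other criteria of the study were a published Sox2 binding signal and a published microarray of streptozotocin, which raises O-GlcNAc. Some putative targets were also checked by qPCR in the study, whose primers include a pair for Pou3f1. That qPCR was not re-examined here.

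**Figure D1:**
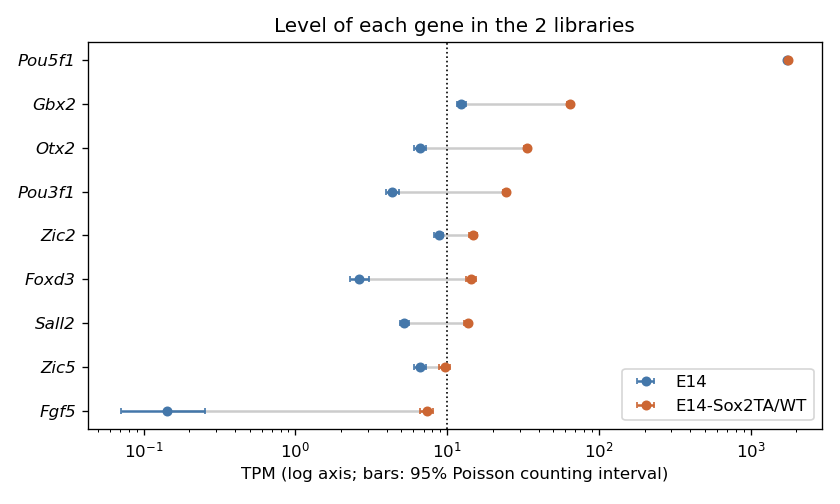
TPM of the 9 genes (log axis) in E14 (blue) and E14-Sox2TA/WT cells (orange), 1 library each, with 95% Poisson counting intervals as bars and a dotted line at a TPM of 10. Every orange point lies to the right of its blue point except for Pou5f1, where the points coincide at 1725 and 1759, and only Gbx2 and Pou5f1 lie past the dotted line in both libraries.

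Fgf5, which encodes a secreted ligand of Fgf receptors, differed most. It had 11 reads in E14 and 386 in E14-Sox2TA/WT cells, with a TPM of 0.142 (95% interval 0.0710 to 0.255) and 7.32 (6.61 to 8.09). It was the scarcest of the 9 genes in both libraries, but it moved from place 15920 to place 9396 when all genes were ordered by TPM. The ratio was 51.4-fold (28.4 to 104), a log2 ratio of 5.69 (4.83 to 6.70), and its width reflects the 11 reads of the E14 library. It had rank 10 from the highest ratio among the 13269 expressed genes, a set that it entered only through its E14-Sox2TA/WT level. The size of the ratio depended on the low E14 value, and it fell to a log2 of 2.86 when 1 was added to both TPM values.

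Otx2, Pou3f1, Foxd3 and Gbx2 formed a group with ratios between 5.03-fold and 5.62-fold. Otx2, the homeobox factor, had 472 reads (TPM 6.66) in E14 and 1587 (TPM 33.5) in E14-Sox2TA/WT cells, a log2 ratio of 2.33 (2.18 to 2.48). Pou3f1, a POU factor, had 412 reads (TPM 4.34) and 1550 (TPM 24.4), a log2 ratio of 2.49 (2.33 to 2.65). Foxd3 had 198 reads (TPM 2.65) and 717 (TPM 14.3), a ratio of 5.40-fold (4.61 to 6.36) and a log2 ratio of 2.43. These 3 genes went from a TPM under 10 to one above it. Gbx2 had 830 reads (TPM 12.4) and 2879 (TPM 64.2), a log2 ratio of 2.37 (2.26 to 2.49), and was the most abundant of the group in both libraries. For each of the 6 pairs within this group, the 95% counting interval of the difference in log2 ratio included 0, and the widest separation, Otx2 minus Pou3f1, was -0.16 (-0.38 to 0.06). Among the 13269 expressed genes, Pou3f1, Foxd3, Gbx2 and Otx2 had the ranks 106, 116, 122 and 131 from the highest ratio.

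Sall2 was intermediate. It had 795 reads (TPM 5.23) in E14 and 1416 (TPM 13.7) in E14-Sox2TA/WT cells, a ratio of 2.62-fold (2.40 to 2.86) and a log2 ratio of 1.39 (1.26 to 1.52). Its log2 ratio was 0.94 below that of Otx2 (interval of the difference 0.75 to 1.14) and 0.63 above that of Zic2 (0.45 to 0.82). Both differences were thus larger than counting error.

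Zic2 and Zic5 were higher by less than 2-fold. Zic2 had 823 reads (TPM 8.80) and 931 (TPM 14.9), a ratio of 1.69-fold (1.54 to 1.86) and a log2 ratio of 0.76 (0.62 to 0.89). Zic5 had 500 reads (TPM 6.65) and 484 (TPM 9.62), a ratio of 1.45-fold (1.27 to 1.64) and a log2 ratio of 0.53 (0.35 to 0.72). Fewer Zic5 reads were thus counted in the shallower E14-Sox2TA/WT library, and its higher TPM rests on the scaling to library size. The pair lies on chromosome 14 on opposite strands, with 9.73 kb between Zic5 (122459160 to 122465658) and Zic2 (122475384 to 122480328). The difference between their log2 ratios was 0.22 (-0.0022 to 0.45), which was not resolved at this depth.

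Pou5f1, which encodes Oct4 and defines pluripotent cells, was by far the most abundant of the 9 genes and nearly level. It had 73463 reads (TPM 1725) in E14 and 50098 (TPM 1759) in E14-Sox2TA/WT cells, place 89 and place 86 of all genes. The log2 ratio was 0.03 (0.01 to 0.04), and its sign changed to -0.12 with CPM, -0.02 with TMM scaling, -0.12 with FPKM and -0.06 when ratios were centred on their median. It moved to 0.34 when the dependence of ratios on transcript GC and length was removed.

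**Figure D2:**
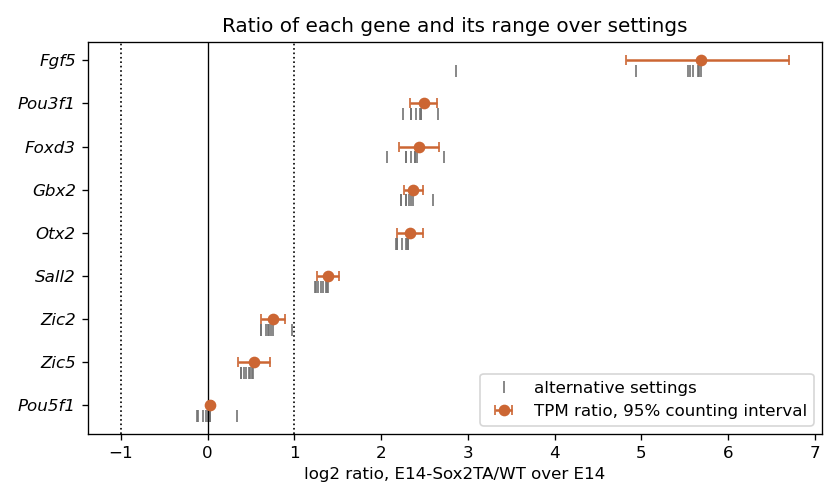
Log2 ratio of TPM (E14-Sox2TA/WT over E14) for each gene, with 95% counting intervals as bars, dotted lines at 2-fold, and grey ticks for the ratio under 8 other settings of scaling, pseudocount and trend. The ticks keep the order of the groups, with Otx2, Gbx2, Foxd3 and Pou3f1 between 2.07 and 2.73, and the ticks of Pou5f1 lie on both sides of 0.

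Setting each gene against Pou5f1 within the same library removes the scaling of the libraries. Per 1000 reads of Pou5f1, Otx2 had 6.43 reads in E14 and 31.7 in E14-Sox2TA/WT cells, Pou3f1 had 5.61 and 30.9, and Gbx2 had 11.3 and 57.5. Relative to Pou5f1, Otx2 was 4.93-fold higher (95% counting interval 4.45 to 5.47), Pou3f1 5.52-fold (4.95 to 6.15), Foxd3 5.31-fold (4.54 to 6.22) and Gbx2 5.09-fold (4.70 to 5.50). Sall2 was 2.61-fold higher (2.39 to 2.85), Zic2 1.66-fold (1.51 to 1.82), Zic5 1.42-fold (1.25 to 1.61) and Fgf5 51.5-fold (28.3 to 93.7). All 8 intervals lay above 1, but Pou5f1 was chosen as the reference with earlier results known. The intervals also leave out the trend on transcript GC and length. With that trend removed, the log2 ratios were 0.34 for Pou5f1 and 0.42 for Zic5, so that Zic5 lay close to Pou5f1. The 7 transcription factors other than Pou5f1 had a summed TPM of 46.7 in E14, 2.71% of the TPM of Pou5f1, and 175 in E14-Sox2TA/WT cells, 9.92% of it.

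The order of levels differed between the libraries. In E14 cells Pou5f1 was followed by Gbx2, Zic2, Otx2, Zic5, Sall2, Pou3f1, Foxd3 and Fgf5, and of these neighbours in the order only Otx2 and Zic5 did not differ beyond counting error (TPM 6.66 and 6.65). In E14-Sox2TA/WT cells Pou5f1 was followed by Gbx2, Otx2, Pou3f1, Zic2, Foxd3, Sall2, Zic5 and Fgf5, and Zic2, Foxd3 and Sall2 overlapped in sequence (TPM 14.9, 14.3 and 13.7). Pou3f1 thus passed Zic2, Zic5 and Sall2, while Zic5 went from place 5 to place 8 of the 9 genes. The step from Pou5f1 to Gbx2 was 139-fold in E14 and 27.4-fold in E14-Sox2TA/WT cells.

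**Figure D3:**
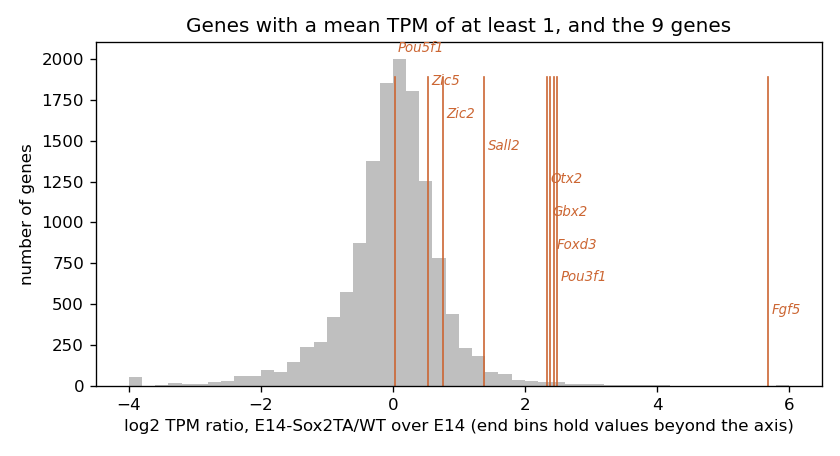
Number of genes by log2 ratio of TPM (E14-Sox2TA/WT over E14, bins of 0.2) for the 13269 expressed genes, with a line for each of the 9 genes. Pou5f1 stands at the peak of the distribution, Zic5 and Zic2 on its upper shoulder, and the other 6 genes from Sall2 (1.39) to Fgf5 (5.69) in its upper tail.

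The genes share neither a chromosome nor a base composition. Otx2, Sall2, Zic2 and Zic5 are on chromosome 14, Pou3f1 and Foxd3 on chromosome 4, and Gbx2, Fgf5 and Pou5f1 on chromosomes 1, 5 and 17. The transcripts of Foxd3 (65.1% G and C), Pou3f1 (63.9%), Zic2 (59.9%) and Gbx2 (59.4%) were above 90% of expressed genes in GC content, while those of Otx2 (46.8%) and Fgf5 (47.0%) were below the median of 50.8%. GC-rich genes tended to be lower in E14-Sox2TA/WT cells, with a median log2 ratio of -0.18 in the highest of 20 GC bins and 0.33 in the lowest. Removal of this trend together with that on length raised the log2 ratio of Foxd3 to 2.73, of Pou3f1 to 2.65, of Gbx2 to 2.59 and of Zic2 to 0.97, and left the count above 2-fold at 5 of the 7 genes past the filter.

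The nearest expressed gene on each side of every member was compared in the same way. The 16 distinct neighbours had a median log2 ratio of 0.02, with 9 higher and none more than 2-fold higher. Among all expressed genes 53.2% were higher and 5.86% more than 2-fold higher, so both counts are near the background. With CPM, 6 of the neighbours were higher, beside 42.6% of all expressed genes. Around Otx2, Tmem260 and Exoc5 had log2 ratios of 0.25 and 0.48, the latter being the highest of the 16. Around Gbx2, Agap1 had 0.01 and Ackr3 -0.19, and around Foxd3, Atg4c had 0.03 and Alg6 -0.11. Mettl3, an RNA methyltransferase gene 2.44 kb from Sall2, had 0.29, and Pcca, 4.04 kb from Zic2, had 0.19. The exception was H2-Q10, a histocompatibility gene 31.5 kb from Pou5f1 with similar copies nearby, with 280 reads in E14, 54 in E14-Sox2TA/WT cells and a log2 ratio of -1.81. The miRNA gene Mir703, the neighbour of Fgf5 at higher coordinates, had 467 and 356 reads, while some noncoding genes closer to members had few. Otx2os1, which lies 1.64 kb from Otx2 on the opposite strand, had 11 and 0 reads, and 2610035F20Rik, 0.185 kb from Zic2 and also on the opposite strand, had 6 and 0. The sources used here do not state whether counting used strand, and none of the annotated genes in the table overlapped a member. Transcripts annotated in GENCODE M21 but not analysed here share sequence with members, namely the processed pseudogene Gm12241 with Zic5 (98.9% identity over 726 bases), the antisense Gm2164 with Pou3f1 (331 bases) and D130058E05Rik with Gbx2 (919 bases), which leaves the assignment of those reads uncertain. Foxd3 shares 90.5% identity over 315 bases with Foxd1, which had 37 and 14 reads.

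**Figure D4:**
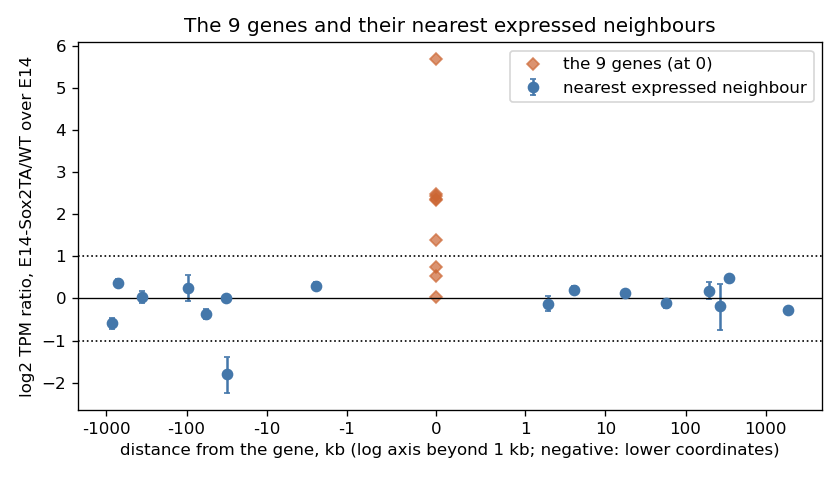
Log2 ratio of TPM (E14-Sox2TA/WT over E14) of the 9 genes, drawn at distance 0 (orange), and of the 16 expressed neighbours (blue, with 95% counting intervals), against their distance in kb on a log axis beyond 1 kb. The neighbours lie between -0.60 and 0.48 except for 1 at -1.81, while 6 of the 9 genes lie above the dotted line at 2-fold.

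Other genes of the formative and primed epiblast, a list of 21 written from general knowledge but also with earlier results known, were next compared, and all 21 were expressed. Of these, 12 were more than 2-fold higher and none was more than 2-fold lower, beside 5.86% and 8.44% of all expressed genes. The median log2 ratio was 1.16. The highest were Lef1, a nuclear effector of Wnt signaling, with 33 and 401 reads (log2 ratio 4.19), the cadherin gene Cdh2 (3.33, TPM 1.13 and 11.4) and Sox11 (2.40, TPM 2.91 and 15.3). Lef1 had a TPM of 0.288 in E14 and counted as expressed through the E14-Sox2TA/WT library. Tcf7l1, a repressor of naive genes, had 1.81, Grhl2, an epithelial factor, 1.74, and the de novo DNA methyltransferase genes Dnmt3b and Dnmt3a had 1.16 and 0.70. The 3 genes with a lower level were Etv4 (-0.57), Nodal (-0.35) and its co-receptor gene Tdgf1 (-0.34). Without Dnmt3b and Fgf15, which the study names partly from these libraries, 10 of 19 were more than 2-fold higher and the median was 1.15. Among 16 genes of naive pluripotency none was more than 2-fold higher, 2 fell past 2-fold, Tbx3 (-1.48) and Nanog (-1.07), and the median was -0.33. These 2 of 16 genes compare with 8.44% of all expressed genes more than 2-fold lower, so their count is near the background. The study also names Tbx3 partly from these libraries, so its direction here is no independent evidence. Dppa3, the highest of the naive genes, had a log2 ratio of 0.98 (159 and 211 reads). Sox2 itself had TPM 373 and 274.

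Receptors and feedback inhibitors of the Fgf pathway, on which Fgf5 acts, were unlike each other. Among all expressed genes, 5.86% were more than 2-fold higher and 8.44% more than 2-fold lower. Of the 7 feedback inhibitors of Fgf-Erk signaling, 4 were more than 2-fold higher (Spred1 1.75, Dusp4 1.66, Spry4 1.39 and Dusp6 1.32) and the other 3 were higher by less. Of the 5 receptor genes, Fgfr1, the most abundant, had a log2 ratio of 0.49 (TPM 62.9 and 88.4) and Fgfr2 0.92, whereas Fgfr4 (-1.38) and Fgfr3 (-1.35) were more than 2-fold lower. Fgf4, the closest relative of Fgf5 with reads and the main Fgf ligand of ESCs, had a TPM of 163 in E14 and 109 in E14-Sox2TA/WT cells. Fgf4 was therefore more abundant than Fgf5 in both libraries.

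**Figure D5:**
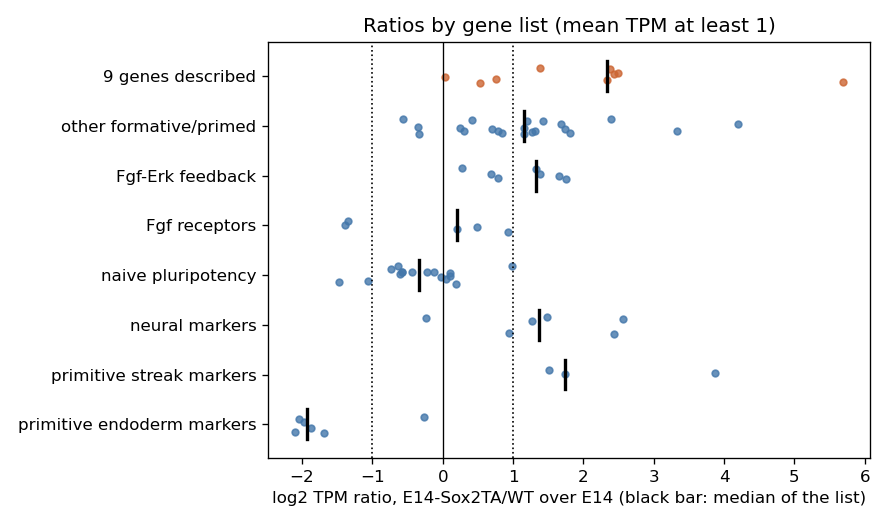
Log2 ratio of TPM (E14-Sox2TA/WT over E14) of the expressed genes of each list, with 1 point per gene, the median as a black bar and dotted lines at 2-fold. The 9 genes have a median of 2.33, the other formative and primed genes 1.16, the naive genes -0.33 and the primitive endoderm markers -1.93.

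Markers of cell types other than ESCs moved as well. Their counts stand beside 5.86% of all expressed genes more than 2-fold higher and 8.44% more than 2-fold lower. All 8 ESC markers, which include Pou5f1 and otherwise repeat genes of the naive and formative lists, had reads in both libraries. Of these, 2 were higher, only Nanog was more than 2-fold lower, and the median log2 ratio was -0.39. Their summed TPM was 11982 in E14 and 8871 in E14-Sox2TA/WT cells, of which Dppa5a alone had 6877 and 4429. Of the 8 neural markers, 6 were expressed and 4 of these were more than 2-fold higher, namely Pax6 (2.56), Nes (2.44), Sox1 (1.49) and Neurod1 (1.26). Pax6 had a TPM of 0.396 in E14 and counted as expressed through the E14-Sox2TA/WT library. Tubb3, the most abundant of the list, had a log2 ratio of -0.23 (TPM 77.3 and 65.8), Hes5 had 15 and 7 reads, and the summed TPM of all 8 was 100 and 142. The 7 primitive streak markers had a summed TPM of 5.63 and 26.6. T (62 and 606 reads), Mixl1 (67 and 150) and Eomes (300 and 575) were more than 2-fold higher, but T and Mixl1 had a TPM under 1 in E14 and counted as expressed through the E14-Sox2TA/WT library. Of the 4 others, Evx1 had 2 and 94 reads, Lhx1 6 and 15, Foxa2 43 and 17, and Gsc 16 and 0. Of the 6 primitive endoderm markers, 5 were more than 2-fold lower (summed TPM 46.2 and 17.1). The 7 trophoblast markers summed to a TPM of 18.8 and 22.3, with Elf5 and Tpbpa at 0. Among them Cdx2 had a TPM of 0.474 and 12.2, whereas Krt7 (-1.14) and Ascl2 (-1.45) were more than 2-fold lower. The 8 fibroblast markers summed to a TPM of 49.8 and 19.5, with Postn, Dcn and Lum at 0. Thy1 (TPM 40.1 and 11.4) and Pdgfrb (6.75 and 2.85) were more than 2-fold lower, while the collagen genes had 15 and 151 reads for Col3a1, 43 and 109 for Col1a2, and a log2 ratio of 0.15 for Col1a1. The part of such cells in the levels of the 9 genes was not tested.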

How the data were processed

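Polyadenylated RNA was sequenced as 1 library per cell line. The submitters' processing notes name HISAT2 2.1.0, StringTie 2.1.3b, Trimmomatic and bcl2fastq 2.20.0 without giving their roles. The authors deposited 1 gene table for mm10. Its read counts are whole numbers without normalization, deposited as such. The authors scaled the FPKM values by gene length and fragment total, and the TPM values by length to a common library sum. The use of strand and the treatment of multiply mapped reads are not given in the sources used here.

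Ratios are TPM in E14-Sox2TA/WT over E14 cells without a pseudocount. A gene was counted when it differed more than 2-fold. Intervals of ratios (95%) are exact Clopper-Pearson intervals of the read counts placed on the TPM scale. Intervals of levels are exact Poisson intervals, and those of differences and of values relative to Pou5f1 are normal approximations on the log scale. They cover counting error only, because each genotype has 1 library. They may be too narrow even for that, since PCR reads are not independent molecules. A count of 3 reads, set as the floor, was 0.0498 CPM in E14 and 0.0673 CPM in E14-Sox2TA/WT cells. The interval code was tested on simulated data. Gene positions are from RefSeq for GRCm38.p6 and strands from GENCODE M21. Transcript GC content and length (GENCODE M21) were found for 99.0% of expressed genes. Alternatives used TMM (edgeR 4.0.16), median-of-ratios size factors (DESeq2 1.42.0), CPM, FPKM, pseudocounts of 0.1 and 1, other filters and folds, centring, and a GC and length trend (medians in 20 bins).

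The members and lists were chosen with earlier results of these data known. The genes named are the members, genes of the lists that were more than 2-fold apart or at the ends of their list, the nearest expressed neighbours, and for each member above 2-fold the gene past the TPM filter of 10 nearest to it in both levels. Other list genes were named after their values were seen. A planned comparison of protein sequences was not run.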

Additional observations from a re-analysis of the deposited data

How the results depend on the processing

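The count of members above 2-fold (5 past the filter) was 6 at a TPM filter of 1 or 5, without a filter and at 1.5-fold, and 4 at 3-fold. It was 3 at a TPM filter of 20, which fewer genes reach. Across all genes past the filter, CPM gave 280 genes more than 2-fold higher and 496 lower, in place of 379 and 370, and the median log2 ratio of these genes was -0.06 with CPM or FPKM and 0.08 with TPM. The member count stayed at 5 under every scaling, pseudocount and trend setting and when the whole counting interval had to lie past 2-fold. No setting gave a member more than 2-fold lower. The median log2 ratio (2.33) was 2.07 with a pseudocount of 1, which shrinks low genes by construction, and 1.54 without Pou3f1, Fgf5 and Sall2. It lay between 2.18 and 2.35 under the other settings. Of 72 ratios of single members under 8 settings, 52 stayed inside the counting interval of the main value and 16 moved outside it with the same sign. The other 4 were for Pou5f1, which changed sign to -0.118 with CPM, -0.0197 with TMM, -0.115 with FPKM and -0.0565 with centring. No paired analysis was possible because each genotype has 1 library, and no library could be left out. Recomputation of the lists and neighbours under the same settings was added after seeing the data. It kept the sign of the median of the formative, naive, receptor, feedback, ESC, neural, streak and primitive endoderm lists under every setting, whereas that of the neighbours changed, from 0.02 to as low as -0.14. Variation between cultures was not measured, and Fgf5 in E14 rests on 11 reads.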

Other observations

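Relatives of the members in their gene families did not move alike. Among all expressed genes, 5.86% were more than 2-fold higher, 8.44% more than 2-fold lower, and 53.2% had a ratio above 1. Of 13 other POU genes, 6 were expressed at a mean TPM of 1 or more, and Pou2f1, which encodes the widely expressed factor Oct1, had 1186 reads (TPM 2.90) in E14 and 6626 (TPM 24.3) in E14-Sox2TA/WT cells, a log2 ratio of 3.07 (95% counting interval 2.98 to 3.16). Pou4f2 had a log2 ratio of 3.03 (108 and 588 reads) and Pou4f1 1.35 (190 and 323 reads), whereas Pou2f3 had -1.72 (673 and 138 reads). The closest relatives of Pou3f1 were scarce, with 8 and 0 reads for Pou3f2, 14 and 8 for Pou3f3 and 15 and 45 for Pou3f4. All 3 relatives of Sall2 had higher levels, with log2 ratios of 2.46 for Sall3, 1.54 for Sall1 and 0.61 for Sall4. The relatives of Otx2, Foxd3 and Gbx2 were scarce, with 45 and 12 reads for Otx1, 2 and 0 for Crx, 37 and 14 for Foxd1, 12 and 4 for Foxd2, 4 and 0 for Foxd4, and 58 and 31 for Gbx1.

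Otx2 and Gbx2, which oppose each other at the later midbrain-hindbrain boundary, were both higher here. Of 6 other genes of that boundary, Fgf8 (69 and 222 reads, log2 ratio 2.17), En1 (26 and 60 reads, 1.79) and En2 (389 and 559 reads, 1.10) were higher, Pax2 had 31 and 13 reads, Wnt1 had 2 reads in each library, and Lmx1b had 50 and 0. Only Fgf8 and En2 of the 6 reached a mean TPM of 1. Among all expressed genes, 53.2% had a ratio above 1 and 5.86% were more than 2-fold higher.

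The gene past the filter that lay nearest to a member on the scale of log2(TPM + 0.1) in both libraries was Nes for Otx2 (distance 0.11), Fgf15 for Sall2 (0.08), Sox11 for Foxd3 (0.16), Anxa3 for Gbx2 (0.28) and Miip for Pou3f1 (0.29). Fgf5 does not itself pass that filter, the nearest gene that does was Cdx2 (distance 1.44), and genes below the filter were not searched. With 2 libraries this likeness describes a pair of levels for each gene.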
